A study of Mus musculus with 6 samples.

Results

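The miR-362, miR-500, miR-501, miR-532 and miR-188 genes form a cluster on the mouse X chromosome, inside the gene Clcn5. The mouse probe sets carrying these names, with or without the arm, were taken from the deposited table, and star strands were left out. This gave 9 probe sets among 609 for mouse and 7625 in all. Of the 9, 5 were detected on at least 2 arrays, deposited as mmu-miR-362-5p_st, mmu-miR-500_st, mmu-miR-501-3p_st, mmu-miR-532-5p_st and mmu-miR-532-3p_st. The cluster was chosen by its measured difference between transgenic and wildtype arrays, so that difference is described here and not tested.

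RNA from the left upper lobe of the lung of 6 mice was measured on 1 miRNA array per mouse, and the precision of every value is limited by this number. The 2 transgenic mice (TG) carried CC10-rtTA-IL13, in which the CC10 promoter, active in airway club cells, drives a doxycycline-responsive transactivator and thereby the cytokine interleukin 13. The 4 wildtype mice (WT) lacked it. All 6 were C57BL/6, 6 to 10 weeks old, and drank water with 2 mg/mL doxycycline for 7 days, and no group carried the transactivator alone. The question the design addresses is which lung miRNAs differ once interleukin 13 is induced in the airway. The labels call the samples biological replicates.

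A miRNA is cut from a hairpin in a longer transcript, and either arm of the hairpin (5p or 3p) can be loaded into an Argonaute protein. The loaded strand finds messenger RNAs mainly through its seed, bases 2 to 8, and lowers their output. miRNAs inside a protein-coding gene are often transcribed with it. Clcn5 encodes a chloride-proton exchanger of endosomes, known from the kidney. In human cells miR-362-5p and miR-500 have been reported to repress CYLD, a deubiquitinase that restrains NF-kB signalling, and miR-532-5p to repress the transcription factor RUNX3. In rodent neurons miR-501-3p limits the synthesis of a glutamate receptor subunit, in mouse heart muscle cells miR-532-3p represses an inhibitor of apoptosis, and in mouse marrow miR-188 acts on the choice between bone and fat cells.

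The mature sequences show how closely the cluster members are related. They are RefSeq's for GRCm38.p6, on the minus strand of chromosome X, written 5′ to 3′ with the seed in capitals and grouped by arm and seed. The 3p arms of miR-500 and miR-501 share a seed:
miR-500-3p: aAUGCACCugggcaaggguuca
miR-501-3p: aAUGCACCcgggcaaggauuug
The 5p arms of miR-500 and miR-362 share another, and that of miR-501 departs from it at the last seed base:
miR-500-5p: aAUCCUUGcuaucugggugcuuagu
miR-362-5p: aAUCCUUGgaaccuaggugugaau
miR-501-5p: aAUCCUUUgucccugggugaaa
The remaining strands have seeds of their own:
miR-362-3p: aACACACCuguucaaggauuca
miR-188-5p: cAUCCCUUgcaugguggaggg
miR-188-3p: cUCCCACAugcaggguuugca
miR-532-3p: cCUCCCACacccaaggcuugca

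The 9 mature entries carry 7 different seeds. miR-500-3p and miR-501-3p, both 22 bases long, differ at 4 positions, U9C, G18A, C21U and A22G, with the miR-500-3p base first and positions counted from the 5′ end. miR-500-3p and miR-362-3p differ at 5 of 22 positions, so the latter is close in sequence to the pair while its seed is not theirs. Among 1679 mature mouse names in the RefSeq table, no other name had the seed of the miR-500-3p pair or that of miR-362-5p and miR-500-5p. miR-329-3p has the seed of miR-362-3p and miR-7061-3p that of miR-188-5p, and neither has a tested mouse probe set. The table has no mature entry for miR-532-5p. The hairpin of Mir532, with its 3p strand in capitals, is shown because both of its arms were measured:
Mir532: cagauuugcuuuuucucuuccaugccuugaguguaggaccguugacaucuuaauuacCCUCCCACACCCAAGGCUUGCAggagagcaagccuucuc

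In GRCm38.p6 the hairpins lie on the minus strand in the order Mir532 (chrX:7248402-7248497), Mir188 (chrX:7247989-7248056), Mir362 (chrX:7241982-7242046), Mir501 (chrX:7241243-7241351) and Mir500 (chrX:7237683-7237774). All 5 lie within the span of Clcn5, which is read from the same strand, and together they cover 10.8 kb. Mir532 and Mir188 are 345 bases apart, 5942 bases separate Mir188 from Mir362, 630 bases separate Mir362 from Mir501, and 3468 bases separate Mir501 from Mir500. RefSeq's promoter table gives Clcn5 2 start sites. The upstream one lies 70.9 kb before Mir532 and the other 49.0 kb after Mir500, so of these starts only the upstream one gives transcripts that can span the cluster. The deposited table names no genome build and holds no coordinates, so positions are RefSeq's and not the array's.

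The deposited values are taken as log2, a base inferred from their range. Probe sets for plant miRNAs served as background, and a value was called detected if it exceeded the 95th percentile of the plant values on the same array. This limit was 4.22 and 4.25 on the TG arrays and 4.27 to 4.33 on the WT arrays. The fit took the 197 mouse probe sets detected on 2 or more arrays. The arrays differed in how much they detected, with 201 and 199 mouse probe sets on TG and 149, 172, 146 and 132 on WT replicates 1 to 4. Over the 197 the median difference (TG minus WT) was 0.21 on the log2 scale, and centring every array on its own median over the tested probe sets brought it to -0.23. This shift of 0.44 applies to every difference below, and its part in the results was not tested. The lung epithelial miR-200c (9.19 to 10.1), endothelial miR-126-3p (9.30 to 11.2) and smooth muscle miR-145 (8.94 to 10.1) were detected on all arrays, and the brain miRNA miR-124 on 0. The log2 of the summed unlogged levels of the 5 epithelial miRNAs looked up was 10.1 to 10.2 in TG and 9.51 to 9.92 in WT. That of the 2 endothelial ones was 9.34 to 9.37 and 9.502 to 11.2, so these sums were higher and lower in TG without overlap. The epithelial sum is mostly that of miR-200c, with a difference of 0.54. The other epithelial differences were 0.35 for miR-141, 0.25 for miR-375, -0.027 for miR-200b and -0.087 for miR-200a, so the list did not move as a whole. The endothelial sum is mostly that of miR-126-3p, with a difference of -1.05, as miR-126-5p was detected on 0 arrays. The 2 smooth muscle miRNAs, both detected on all arrays, went opposite ways, with differences of 0.58 for miR-145 and -0.50 for miR-143. The log2 of their summed levels was 10.395 to 10.403 in TG and 9.66 to 10.6 in WT, so the groups overlapped. Of 5 leukocyte miRNAs, miR-150 was detected on all arrays, miR-155 on 4, miR-223 on 2 and miR-142-3p and miR-142-5p on 0. Their differences were 0.22 for miR-150, 0.71 for miR-155 and -0.27 for miR-223. The log2 of the summed levels of the 5 was 7.42 to 7.57 in TG and 7.19 to 7.55 in WT, so the groups overlapped. The part of these marker lists in the results below was not tested. As the samples are whole lobes, fewer cells of a type and less RNA per cell cannot be told apart.

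All 5 detected members of the cluster had higher mean values in TG than in WT, by 1.21-fold to 2.60-fold. In 4 of them the lower TG value exceeded the highest WT value. This arrangement held for 29.4% of all tested mouse probe sets, and the reverse for 6.6%. At a Benjamini-Hochberg adjusted p under 0.05 from limma, 3.05% of tested probe sets were called, all higher in TG, among them 1 of the 5 members, miR-362-5p. With quantile normalization, centring, a limit at the 99th percentile, a filter of 4 arrays (which drops miR-362-5p from the fit), all animal probe sets in 1 fit, the replicate block, only WT replicates 2 and 3, or without either TG array or WT replicate 1, 3 or 4, 0 members were called. Without WT replicate 2 and with array weights 4 were, and with only WT replicates 1 and 4, 3 were. These counts are part of the contrast that chose the members and are given as a description. The 5 passed the detection filter partly through their TG values, since TG replicate 1 and TG replicate 2 each detected all 5, and WT replicates 1 to 4 detected 3, 4, 3 and 0 of them.

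miR-500, the most distal member of the cluster, had log2 values of 6.32 and 5.75 on the TG arrays and of 4.50, 5.58, 4.46 and 4.08 on WT replicates 1 to 4. WT replicate 2 stood 1.08 above the next WT array and just below TG replicate 2, and the groups did not overlap. Its mean was 6.04 ± 0.41 in TG (SD, n = 2) against 4.66 ± 0.64 in WT (SD, n = 4), which is a difference of 1.38 ± 0.42 (SE), or 2.60-fold. It was detected on 3 of 4 WT arrays, and raising every value below its array's limit to that limit gave 2.49-fold. Without WT replicate 2 it was 3.22-fold.

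The deposited name miR-500 gives no arm. Human miR-500 was deposited as a pair of names, and the plain one was detected on 0 arrays, with values of 3.86 to 4.25. Its star strand, looked up after the values had been seen because it bears on the arm, had values of 4.996 and 4.77 in TG and of 4.03, 4.16, 4.58 and 3.85 in WT. Which arm the mouse probe set reads was not settled from these values, since probe sequences were not used here.

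miR-532-5p, from the most upstream hairpin, had values of 6.13 and 5.68 in TG and of 4.34, 5.63, 4.66 and 4.26 in WT. The pattern over arrays resembled that of miR-500, with WT replicate 2 within 0.051 of TG replicate 2 and the groups again not overlapping. Its difference was 1.18 ± 0.41 (SE), from 4.72 ± 0.63 in WT (SD, n = 4) to 5.91 ± 0.32 in TG (SD, n = 2), or 2.27-fold. It was 2.24-fold at the detection limit, with 3 of 4 WT arrays detecting it, and 2.79-fold without WT replicate 2.

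miR-532-3p, from the other arm of the same hairpin, had values of 4.77 and 4.57 in TG and of 4.42, 4.89, 3.96 and 4.32 in WT. Here the groups overlapped, since WT replicate 2 lay above both TG arrays. The difference was 0.27 ± 0.29 (SE), or 1.21-fold, from 4.40 ± 0.38 in WT (SD, n = 4) to 4.67 ± 0.14 in TG (SD, n = 2), and it was smaller than its standard error. It was detected on 2 of 4 WT arrays, and at the limit the fold was 1.14. Without WT replicate 2 the difference was 0.43, or 1.35-fold; it was 0.12 without WT replicate 3, and it was 0.17 without TG replicate 1. Centring on the tested median turned its difference to -0.17. The arms of this hairpin thus differed in their values, 1.18 against 0.27, a gap that was not tested because both come from the contrast that chose them.

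miR-362-5p had the least spread of the 5. Its values were 5.23 and 5.29 in TG and 4.23, 4.19, 4.30 and 4.06 in WT. Both TG arrays stood at least 0.93 log2 units above every WT array, WT replicate 2 included, and WT replicate 3 alone among the WT arrays exceeded its limit, at 4.30 against 4.28. The difference was 1.07 ± 0.21 (SE), from 4.19 ± 0.10 in WT (SD, n = 4) to 5.26 ± 0.04 in TG (SD, n = 2), or 2.09-fold as measured and 1.94-fold at the limit. The WT values thus lay at background on 3 of 4 arrays, and their spread is mostly that of background. The fold without WT replicate 2 was 2.09.

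miR-501-3p had values of 5.002 and 4.85 in TG and of 4.06, 4.61, 3.92 and 4.02 in WT. Only WT replicate 2 among the WT arrays detected it, and it lay below both TG arrays. The difference was 0.77 ± 0.27 (SE), or 1.71-fold as measured and 1.46-fold at the limit, from 4.15 ± 0.31 in WT (SD, n = 4) to 4.92 ± 0.11 in TG (SD, n = 2). Without WT replicate 2 the measured fold was 1.90.

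**Figure D1:**
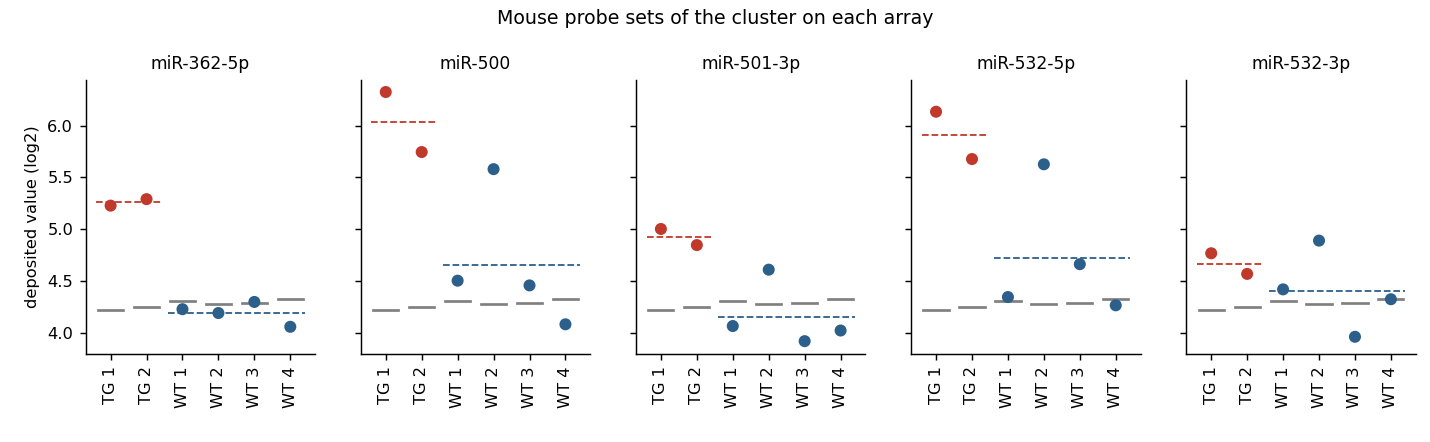
Deposited log2 value (y axis) of the 5 detected members on each of the 6 arrays (x axis), TG in red and WT in blue; dashed lines are group means and grey bars the detection limit of each array. miR-362-5p has all WT arrays near the limit, at 4.06 to 4.30, while miR-500 and miR-532-5p stand at 5.58 and 5.63 on WT replicate 2.

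The other 4 mouse probe sets of the cluster were at or near background. miR-501-5p and miR-188-5p were the nearest to the detection filter. miR-501-5p had values of 4.38 and 4.13 in TG and 3.94 to 4.04 in WT, and miR-188-5p 4.31 and 4.13 in TG and 3.72 to 4.15 in WT. Each exceeded the limit on TG replicate 1 alone. Just inside the filter were miR-362-5p and miR-501-3p, each detected on 3 arrays.

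miR-362-3p ran from 3.799 to 4.15 and miR-188-3p from 3.99 to 4.23 over the 6 arrays, and both were detected on 0. No fold is given for these 4, whose levels were not measured above background in WT. The hairpins of miR-362 and miR-501 therefore each had 1 arm detected in both TG arrays and the other in 1 or 0, miR-188 had neither arm, and miR-532 had both. Along the transcript the members with differences over 0.7 thus came from both ends of the cluster and its middle, with miR-188 between them undetected on 5 or 6 arrays.

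**Figure D2:**
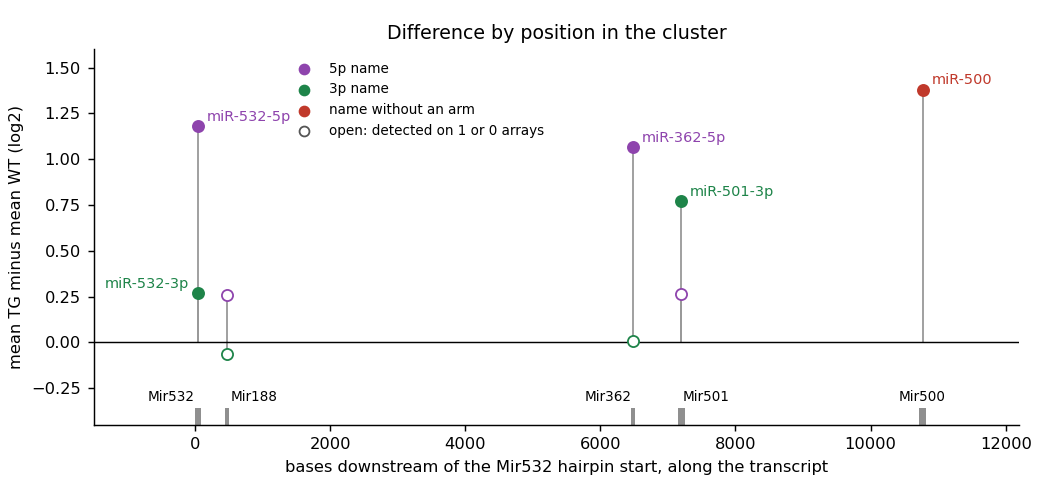
Mean TG minus mean WT on the log2 scale (y axis) for the 9 mouse probe sets, placed at their hairpins by the number of bases downstream of the Mir532 hairpin start (x axis); filled points were detected on 2 or more arrays. miR-532-5p (1.18), miR-362-5p (1.07), miR-501-3p (0.77) and miR-500 (1.38) stand above the second arms and both strands of miR-188.

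Probe sets for the same names in other mammals, and for miR-502, were read on these 6 arrays too and stand for no further animals. There were 33, of which 15 were detected on 2 or more arrays. Of these 15, 14 had higher means in TG and 1 lower, and in 11 the lower TG value exceeded the highest WT value. Among all tested mouse probe sets, 130 of 197 had higher means in TG, and 29.4% had that arrangement. The same shares over all probe sets of other mammals were not computed. The 15 read the same RNA as the chosen members, and TG values alone can pass the filter, so these counts are a description. For miR-362-5p the human and macaque (mml) probe sets differed by 0.85 and 0.68, or by 0.52 and 0.41 at the limit. They were detected on 0 and 1 of 4 WT arrays. For miR-501-3p the human one differed by 0.98, or by 0.68 at the limit, and was detected on 0 WT arrays. Both human probe sets thus passed the filter through their TG values alone.

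miR-500 had 4 such probe sets. The rat one differed by 0.998, with values of 5.91 and 5.64 in TG and of 5.13, 5.03, 4.81 and 4.14 in WT, so that WT replicate 2 did not stand out there. The dog one differed by 0.41, or by 0.28 at the limit, and was detected on 1 of 4 WT arrays. Its lower TG value was only 0.035 above its highest WT value. The human and macaque ones were detected on 0 arrays.

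miR-532-5p was read by human and macaque probe sets, with differences of 1.55 and 1.30, while the rat probe set of that name was detected on 0 arrays, at 3.87 to 4.10. The cow and dog probe sets named miR-532 differed by 1.76 and 1.59. On the cow probe set WT replicate 2, at 4.59, lay beside WT replicates 1 and 3, at 4.66 and 4.68, which is unlike the mouse probe set. On the human and macaque miR-532-5p and dog miR-532 probe sets WT replicate 2 was the highest WT array, at 5.53, 5.37 and 5.41, as in mouse. The next highest WT values there were 4.47, 5.31 and 4.59. For miR-532-3p the human, rat and macaque probe sets differed by 0.19, 0.03 and -0.19, so the sign of its difference varied between probe sets.

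miR-502 has no mouse entry in the RefSeq table. Its probe sets were nevertheless above the limit in TG. The human miR-502-3p probe set had values of 5.49 and 5.24 in TG and of 4.09, 4.22, 4.31 and 3.93 in WT, a difference of 1.22. The dog miR-502 and macaque miR-502-3p probe sets differed by 1.15 and 0.75, and both miR-502-5p probe sets were detected on 0 arrays. Which mouse RNA these probe sets bind was not tested.

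For miR-188 none of the 8 probe sets of other mammals reached 2 arrays, and 7 were detected on 0. The 8 include human 5p and 3p and 6 more under the plain name. miR-188 was thus near background under every name on the array, while its neighbour miR-532-5p, 345 bases upstream at the hairpin level, was detected on 5 arrays.

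**Figure D3:**
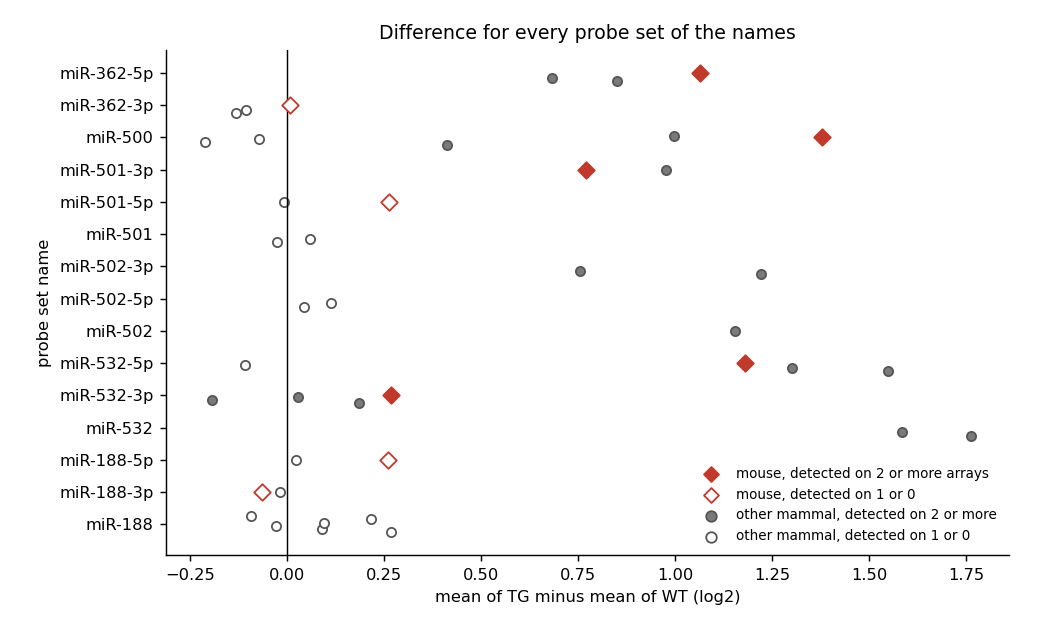
Mean TG minus mean WT on the log2 scale (x axis) for every mouse and other mammalian probe set, by name (y axis); filled symbols were detected on 2 or more arrays and open ones on 1 or 0. Detected probe sets of miR-362-5p, miR-500, miR-501-3p, miR-502, miR-532-5p and miR-532 without an arm lie between 0.41 and 1.76, those of miR-532-3p between -0.19 and 0.27.

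The members also varied among the WT mice. WT replicate 2 had the highest WT value in 4 of 5 members, and in 42.1% of all tested probe sets. It exceeded the WT mean by 0.92 for miR-500, 0.90 for miR-532-5p, 0.49 for miR-532-3p and 0.46 for miR-501-3p, and its deviation was -0.0028 for miR-362-5p. The range over the WT arrays was 1.4985 for miR-500 and 1.36 for miR-532-5p, larger than their differences between groups, and 0.24 for miR-362-5p.

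WT replicate 2 also detected the most mouse probe sets of the WT arrays, 172 against 132 to 149. Over the tested probe sets it correlated at r = 0.963 with TG replicate 1 and 0.962 with TG replicate 2, and at 0.949, 0.961 and 0.885 with WT replicates 1, 3 and 4. WT replicates 1, 3 and 4 correlated with TG replicate 1 at 0.917, 0.957 and 0.879, and with TG replicate 2 at 0.922, 0.950 and 0.869. WT replicate 4 detected the fewest, and all 5 members lay under its limit. The part of these array-wide features in the members' values was not tested. With WT replicate 2 alone as the reference, the differences were 1.07 for miR-362-5p, 0.46 for miR-500, 0.32 for miR-501-3p, 0.28 for miR-532-5p and -0.22 for miR-532-3p. WT replicates 1 and 4 had lower highest values than the other arrays, 11.5 and 11.4 against 13.1 to 13.4. Against WT replicates 2 and 3 only, the differences were 1.02 for miR-362-5p, 1.02 for miR-500, 0.66 for miR-501-3p, 0.76 for miR-532-5p and 0.24 for miR-532-3p.

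**Figure D4:**
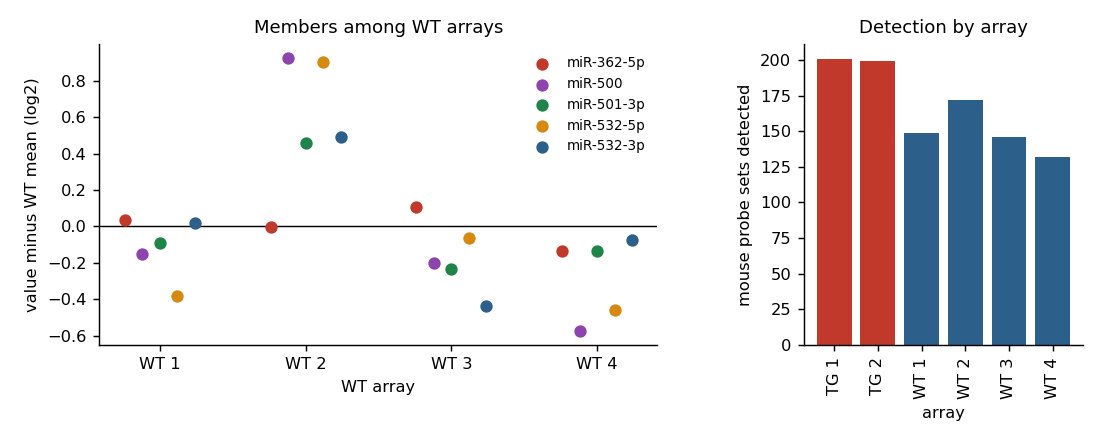
Left, log2 value minus the WT mean (y axis) of the 5 detected members on each WT array (x axis); right, number of mouse probe sets detected (y axis) on each array (x axis, TG red, WT blue). On WT replicate 2, 4 members lie 0.46 to 0.92 above their WT mean and miR-362-5p lies at it; that array detected 172 mouse probe sets.

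Across the 6 arrays miR-500 and miR-532-5p had nearly the same profile, with Pearson r = 0.986, and miR-501-3p correlated with them at 0.972 and 0.956. Over the 4 WT arrays these 3 values were 0.966, 0.930 and 0.895. The 3p strands of miR-500 and miR-501 differ at 4 positions, and whether either probe set also reads the other's RNA was not tested. miR-362-5p correlated with the other 4 at 0.37 to 0.83 over 6 arrays and at -0.31 to 0.25 over the 4 WT arrays, where its values are mostly background. The arrays share the differences in detection given above and fall into groups, so these values describe the profiles and carry no test.

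The tested mouse probe sets outside the cluster with the profiles most like the mean of the 5 were, by Pearson r over the 6 arrays, miR-342-3p (0.985), miR-34a (0.983), miR-324-5p (0.979), the star strand of miR-200b (0.978) and miR-652 (0.970). miR-342-3p is a lymphocyte-expressed miRNA and miR-34a a transcriptional target of p53. miR-324-5p had values of 6.04 and 6.08 in TG and of 4.36, 5.54, 4.57 and 4.10 in WT, so that WT replicate 2 was high there too. The star strand of miR-200b had 5.05 and 4.69 in TG and 4.08, 4.61, 4.09 and 4.15 in WT. The median r of the 192 other tested probe sets was 0.53, and 21 of them exceeded 0.9. The mean profile contains the difference between TG and WT by which the members were chosen, so a high r partly restates it. Over the WT arrays alone the r of these 5 probe sets ran from 0.886 for miR-652 to 0.987 for miR-34a.

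miR-652 is itself X-linked. The cluster was therefore set beside the 16 other tested probe sets whose mouse genes all lie on the X chromosome. Their median difference was 0.24, near the 0.21 of all tested probe sets. The 5 members were chosen by this difference and all stood above 0.24, so no comparison is drawn from that. Of the 16, 10 had positive and 6 negative differences, against 130 and 67 of all 197. From limma, 0 of the 16 had an adjusted p under 0.05, and 4 had an unadjusted p under 0.05. Over all 197 these counts were 6 and 39. In 6 of the 16 the lower TG value exceeded the highest WT value, an arrangement seen in 29.4% of all tested mouse probe sets. With each array centred on its tested median, 5 of the 16 were above 0, against 64 of all 197. The centred median of the 16 was -0.20, against -0.23 for all tested probe sets. Without centring, the highest of the 16 was miR-672, with a difference of 1.59 ± 0.56 (SE), and the lowest miR-223, a myeloid miRNA, at -0.27 ± 0.25. The X chromosome list comes from the annotation, and no test of the cluster against it was made.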

How the data were processed

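Per the labels' protocols, RNA was isolated with TRIzol and labelled with biotin for Affymetrix arrays. The authors deposited 1 value per probe set and array, taken here as log2. Their scaling and summarization are unknown, and 0 columns were left unused. Mouse probe sets above the 95th percentile of the 1631 plant probe sets on 2 or more arrays were fitted with limma 3.58.1 (lmFit and eBayes, no trend, two-sided) in R 4.3.3, with Benjamini-Hochberg adjustment over 197. The fit was tested on simulated data with equal spreads and changes larger than any measured here, which leaves smaller changes unchecked. SEs are from this fit. Names were matched to RefSeq GRCm38.p6 (191 of 197 found) in Python 3.11.15. All members by name, the 5 most similar profiles, and the extremes of the X chromosome list were named by rule. The members and lists were chosen with earlier results of these data known. Alternatives were other filters, limits, normalizations, variance models, array weights, left-out arrays and the replicate number as a block. That number is no stated pairing: deviations of same-numbered arrays correlated at -0.21 and 0.07.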

Additional observations from a re-analysis of the deposited data

Results flagged for a closer look

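In 21 detected mouse and other mammalian probe sets of these names, the human star strand of miR-500 included, 1 WT array stood far from the other 3 in 2 cases, and chance gives about 1 in 20. As the 21 read the same WT arrays, they are not independent, so nothing is drawn from this count. WT replicate 4 was low, at 4.14, on the cow miR-532 probe set. WT replicate 2 was high, at 4.46, on the macaque miR-362-5p probe set, where the mouse probe set read 4.19.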

How the results depend on the processing

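The differences of miR-500 and miR-532-5p kept their sign and moved by less than 1 replicate SD in all 18 alternatives, from 0.94 to 1.74 and from 0.74 to 1.601. miR-362-5p moved to 0.86 with quantile normalization, 0.63 with centring on the tested median and 0.96 with values set to the limit. miR-501-3p moved to 0.33 and miR-532-3p reversed to -0.17 with that centring, which shifts every difference by 0.44. Leaving out single arrays gave 1.02 to 1.10 for miR-362-5p, 1.09 to 1.69 for miR-500, 0.69 to 0.92 for miR-501-3p, 0.95 to 1.48 for miR-532-5p and 0.12 to 0.43 for miR-532-3p. With the replicate block the values were 1.05, 0.99, 0.59, 0.92 and 0.014 in the same order. The count of called probe sets, 6 of 197 by limma, was 1 without the detection filter and with detection on 4 or more arrays, 2 with the 99th percentile and with centring, 0 with quantile normalization (33 at an unadjusted p under 0.05), 33 with array weights, 14 of 1666 with all animal probe sets, 31 with only WT replicates 1 and 4, and 12 with the replicate block. Leaving out single arrays gave 0 to 27, with 0 on leaving out either TG array (14 and 16 at an unadjusted p under 0.05) or WT replicates 1 or 3 (27 and 32), 4 without WT replicate 4 and 27 without WT replicate 2. Of the 5 members, 4 were called with array weights and without WT replicate 2, 3 with only WT replicates 1 and 4, 1 without the detection filter, with the variance trend and with values set to the limit, and 0 in the other alternatives. miR-362-5p and miR-501-3p were not tested with detection on 4 or more arrays, nor miR-532-3p with the 99th percentile. The cause of these changes was not tested. Signal close to background in WT limits miR-362-5p and miR-501-3p.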
